A study of Mus musculus with 15 samples.

Results

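The promoters of 43 genes for the extracellular matrix and for stromal surface or cytoskeletal markers were followed through 15 nucleosome maps. The genes were listed by name as fibroblast products, and every row of the promoter table whose RefSeq transcript belongs to one of them was taken. This gave 45 of the 25881 promoters in the table, because Dcn and Pdgfra each have 2 start sites. Each gene is counted once below, by its row with the higher coverage score.

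The libraries come from ChIP-MNase, in which cross-linked chromatin is immunoprecipitated as long fragments, digested on the beads with micrococcal nuclease, and the protected mononucleosomal DNA is sequenced. Mouse DCs were differentiated with GM-CSF from progenitor cell lines that had been derived from bone marrow, and were used non-stimulated or after 1 h with LPS at 100 ng/ml. The fibroblasts were 3T3 cells, an established mouse line, non-stimulated or after 1 h with TNF-α at 5 ng/ml. For H3K4me1, a histone mark of active and many silent promoters, the authors pooled 2 replicates into 1 set for each of these 4 conditions. A further 8 single H3K4me1 libraries, 2 for each group, came from control 3T3 cells and from 3T3 cells with a stable shRNA knockdown of Brg1 and Brm, the ATPases of the BAF remodelling complex, each non-stimulated and with TNF-α. The knockdown came from one retroviral shRNA matching a stretch present in both mRNAs, with transduced cells sorted on high GFP, and knockdown levels cannot be read from these libraries. Finally, 3 libraries from TNF-stimulated 3T3 cells used antibodies to RNA polymerase II phosphorylated on serine 7 (S7P, 2 libraries) or serine 5 (S5P, 1 library). The study describes its replicates as biological samples made independently, and among the single libraries the p-values measure the spread between libraries. The cell type comparison has 1 pooled set per condition and no separate replicates. Its p-values measure how far non-stimulated and stimulated cells disagree on the cell type difference.

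Fibroblasts build the matrix of connective tissue. They secrete fibrillar collagens that lysyl oxidases crosslink, a basement membrane of collagen IV, laminins and nidogens, and elastic fibres with fibrillin and fibulins. Matricellular proteins and small proteoglycans bind this scaffold and tune how cells attach and signal. At an active promoter nucleosomes usually leave a nucleosome-depleted region (NDR) just upstream of the start site, followed by a well-placed first nucleosome and a regular array.

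Of the 43 promoters, 9 held the letters TATAAA on either strand within the 150 bases before the start site. This was 20.9% of the genes, where 7.42% of all 25733 promoters with sequence and 6.14% of those active in fibroblasts only held it. In 4 genes the match lay wholly between -40 and -21 bp, a share of 9.30% against 2.16% of all promoters. The sites are printed first because they are the sequence feature in which these promoters stood furthest from the rest, and the capitals mark the match. Sequences were read from the mouse genome, build NCBIM37 (mm9), on the strand of the gene.
Col1a2, chr6:4455657-4455686, plus strand: aaacttttcccaTATAAAtaaggcaggtct
Postn, chr3:54164991-54165020, plus strand: agcccagagctaTATAAActcagctctcca
S100a4, chr3:90407649-90407678, plus strand: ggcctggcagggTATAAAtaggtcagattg
Vim, chr2:13495894-13495923, plus strand: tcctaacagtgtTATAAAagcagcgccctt
Cyr61, chr3:145312957-145312986, minus strand: ctaggcaggcatTATAAAgggcgggctccc
Col1a1, chr11:94797526-94797555, plus strand: ccatcaagatggTATAAAaggggcccaggc

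The match began at -29 bp in Col1a2, -27 bp in Postn, -32 bp in S100a4, -33 bp in Vim, -25 bp in Cyr61 and -47 bp in Col1a1. Col3a1, Thbs2 and Tnc held theirs further upstream, at -118, -126 and -126 bp. The other motifs searched on both strands were closer to the background. CCAAT occurred in 27.9% of the members against 26.1% of all promoters, GGGCGG in 46.5% against 37.4%, and TGANTCA, the letters bound by AP-1 factors, in 4.65% against 3.86%. Only Col6a1 and Dcn held TGANTCA.
Col6a1, chr10:76188862-76188891, minus strand: atgctgatgctgTGACTCActcagctttga
Dcn, chr10:96944907-96944936, plus strand: actgatggtagcTGAGTCActtgtgttcaa

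CATTCC, the letters bound by TEAD factors, occurred in 13.95% of the members against 6.71% of all promoters. Ctgf, which encodes a matricellular protein that promotes matrix production, held 3 matches on its reverse strand, which read GGAATG and are capitalised in the stretch from -150 to -2 bp. This stretch lies outside annotated UTRs.
Ctgf, chr10:24315099-24315247, plus strand: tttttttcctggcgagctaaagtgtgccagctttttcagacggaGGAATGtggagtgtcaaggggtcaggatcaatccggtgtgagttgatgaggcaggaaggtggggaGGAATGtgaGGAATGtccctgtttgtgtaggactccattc

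A CpG island within 200 bp of the start site was called for 19 of the 43 genes, or 44.2%, against 48.3% of all promoters and 83.8% of those active in both cell types. Start sites of 42 of the 45 rows lay within 100 bp of a GENCODE transcript start, the exceptions being Dcn at 110 bp, Lox at 117 bp and Tnc at 26289 bp. The Col4a1 and Col4a2 start sites are 4 bp apart on opposite strands of chromosome 8, so their 2 windows hold the same nucleosomes in mirror image.

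The listed genes were fibroblast genes by the expression values deposited with the promoters, which are 1 value per cell type from public datasets. By the authors' class limit, a value above 0.02 of the mean over promoters, 40 of the 43 were active in fibroblasts and 16 in DCs. Their median expression percentile among all promoters was 96.4 in fibroblasts and 50.1 in DCs. Of the whole list, 25 genes were active in fibroblasts only and 15 in both cell types. Loxl2, a lysyl oxidase relative, was active in DCs only, and Eln, which encodes elastin, and Fbln1, which encodes a fibulin, were active in neither. S100a4, Vim, Fn1 and Thbs1 stood apart in that they lay at or above the 98.7 percentile in fibroblasts and the 99.3 percentile in DCs.

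**Figure D1:**
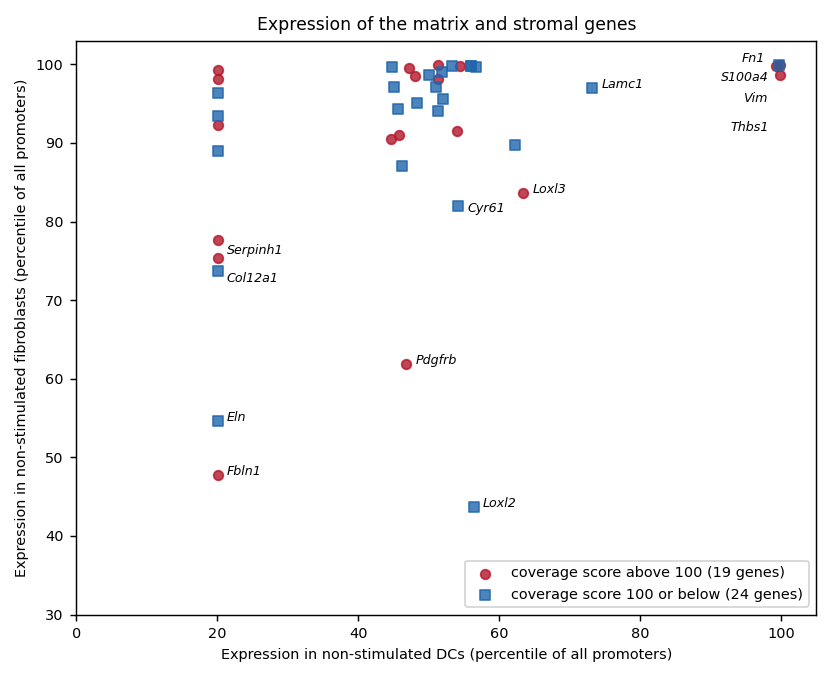
Expression percentile of each of the 43 genes among all promoters in non-stimulated DCs (x axis) and non-stimulated fibroblasts (y axis), from 1 deposited value per cell type; symbols give the coverage class. Most genes lie in the upper left, high in fibroblasts and near or below the middle in DCs, with Fn1, S100a4, Vim and Thbs1 near the top of both.

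The labelled cell types were checked with marker lists. Of 20 DC and myeloid markers, 19 were active in DCs and 1 in fibroblasts, and Cd86, Flt3, Lyz1 and Tyrobp were listed at 0 in fibroblasts. Their summed expression was 1584 in DCs and 5.27 in fibroblasts, on scales that differ between the columns. Of 16 fibroblast markers that are not members, 13 were active in fibroblasts and 7 in DCs, with summed values of 1641 and 5.78, and 7 were listed at 0 in DCs. Of 4 epithelial and 3 endothelial markers, none was active in fibroblasts and 1 of each list was active in DCs. These expression values do not come from the nucleosome libraries themselves.

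Coverage was somewhat lower at these promoters than at all promoters. The coverage score is the number of fragments within 1 kb on each side of the start site, averaged by the authors over non-stimulated DCs and fibroblasts. It therefore does not tell the cell types apart. Its median was 88 for the 43 genes and 106 for all promoters, and 19 of the 43 passed the minimum of 100, which is 44.2% against 52.4%. The stromal receptors and markers passed in 4 of 5 genes and the crosslinking and folding enzymes in 3 of 5. Of the 5 fibrillar collagens, Col1a1 passed with a score of 100.5, the lowest above the minimum, and the other 4 did not. Among the 8 matricellular genes Postn and Thbs1 passed. The scores ran from 30 for Vim to 602.75 for S100a4, and the highest score not passing was 99, for the second Dcn row. The 24 genes at 100 or below were Vim, Col8a1, Eln, Lum, Cyr61, Ctgf, Thbs2, Sparc, Lamb1, Col3a1, Col1a2, Col5a2, Lamc1, Fbn1, Col5a1, Nid2, Loxl1, Tnc, Fstl1, Col6a2, Col12a1, Bgn, Col6a3 and Loxl2, and they entered a test only in the fit without a coverage minimum.

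The deposited values are relative to the surrounding 1 kb, so the sequencing depth of a library cannot be read from them. The share of 10-bp bins holding any fragment stands in for it. Over the 13559 promoters above the minimum the pooled sets had 82.0 to 90.2% filled, single H3K4me1 libraries 63.5 to 78.1%, and libraries of polymerase 69.2 to 81.2%. Mean occupancy was 1.61 to 1.63, 0.791 to 0.804 and 0.962 to 0.975 in that order, and each library was divided by its own mean.

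At several matrix promoters the fragments themselves were more complete in fibroblasts. At Dcn, which encodes decorin, a proteoglycan that binds collagen fibrils, 47.5 and 43.5% of bins were filled in the 2 DC sets and 100% in both fibroblast sets. Postn, encoding periostin, gave 57.5 and 59.5% in DCs against 99.5 and 98.5%, and Col6a1, a chain of the beaded-filament collagen VI, gave 72 and 38.5% against 97 and 99.5%. The reverse held at Fn1, the gene for fibronectin, with 99 and 93.5% in DCs against 72.5 and 60% in fibroblasts. Over the 19 covered members both fibroblast sets lay above both DC sets in 8, where 13.7% of all covered promoters did so, and below in 6, where 38% did so. Among the 24 thinly covered members 15 were fuller in fibroblasts, where 39.8% of thinly covered promoters were, and 2 less full, where 20.3% were. These 24 had a median of 73.75 and 62% of bins filled in the DC sets and 92.25 and 85.5% in the fibroblast sets. All thinly covered promoters had 74 and 69% in the DC sets and 80 and 76% in the fibroblast sets. Col1a2 was filled to 44.5 and 34.5% in DCs against 84.5 and 78.5% in fibroblasts. The part of these coverage differences in the occupancy measures below was not tested.

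Nucleosome organisation was read by 2 measures. The patterning level multiplies a promoter's occupancy by a template profile and sums over the 200 bins from -1000 to 1000 bp. The template was averaged over promoters active in that cell type before stimulation. The level is high where nucleosomes and NDR lie as at a typical active promoter, and near or below 0 where they do not. The NDR log2 ratio compares mean occupancy from -150 to 0 bp with that from -1000 to -500 bp, after adding 0.1 to each, and is negative where the NDR is depleted. A value near -3.5 arises where the NDR window holds no fragment at all.

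Fibroblasts showed the more typical promoter pattern at more of the covered members than DCs did, in direction, although no single promoter passed the adjusted test. Both fibroblast sets exceeded both DC sets in patterning at 10 of 19 members, or 52.6%, where 20.4% of the 13559 promoters did so. They fell below both DC sets at 4, where 18.3% did so, and overlapped at 5. The NDR was deeper in both fibroblast sets at 9 of 19, or 47.4%, against 21% of all promoters, and shallower at Col4a2 and S100a4, where 16.9% of all promoters were. Promoters active in fibroblasts only, outside the list, gave 25.7% for patterning and 25.1% for the NDR (955 promoters). Of the 10 members higher in patterning, Col4a1, Col6a1, Fbln1, Fbln2, Nid1 and Postn had more bins filled in both fibroblast sets. Fbln5, Fn1, Pdgfrb and Thbs1 had more filled in both DC sets. The coverage minimum averages both cell types, so members could pass it mainly on fibroblast fragments. How far this enters these counts was not tested. The members' median fibroblast minus DC difference was 2.90 in patterning and -0.69 in NDR log2 ratio, against 0.238 and -0.081 for all promoters. By level, the members' median patterning was 2.33 in fibroblasts and 0.466 in DCs, against 3.46 and 3.34 for all covered promoters. Promoters active in both cell types had 7.26 and 6.39. The members' median NDR log2 ratio was -0.58 in fibroblasts and -0.04 in DCs, against -0.72 and -0.66 for all covered promoters. In the fibroblast pooled sets the 19 covered members were thus less patterned, by median, than all covered promoters. In single fibroblast libraries the order went both ways, at 1.25 against 2.41 in the first TNF-stimulated control library and 7.59 against 3.34 in the second. The 24 thinly covered members had median patterning of 6.19 in the fibroblast pooled sets and 0.509 in DCs, against 1.61 and 1.63 for all thinly covered promoters.

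**Figure D2:**
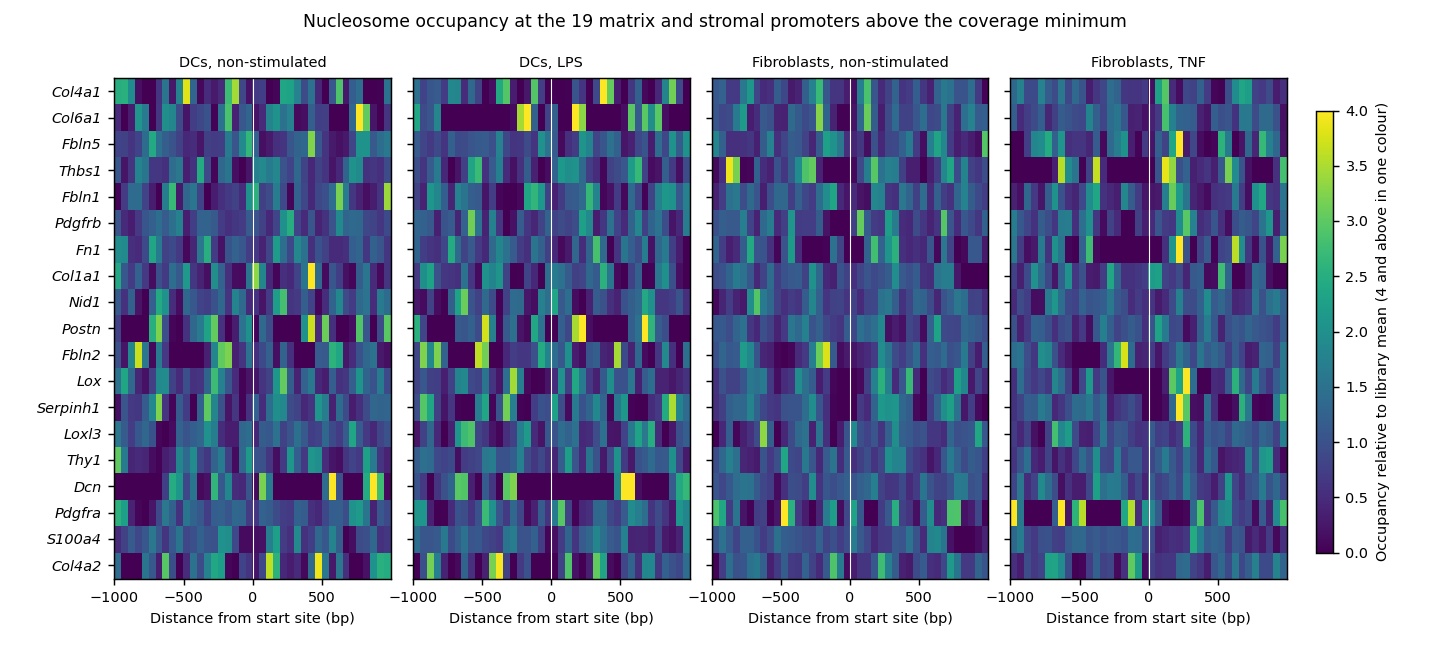
Occupancy relative to the library mean in 50-bp steps from -1000 to 1000 bp of the start site for the 19 covered members (rows, ordered by fibroblast minus DC difference in patterning) in the 4 pooled sets; the white line marks the start site. Dark gaps run through Dcn, Postn and Col6a1 in the DC panels, and Thbs1, Lox and Fn1 show an empty stretch before the start site in TNF-stimulated fibroblasts.

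Among the 19 covered members, Col4a2, Col4a1 and Col6a1, collagens that are not fibrillar, had the largest patterning differences between cell types. Thinly covered promoters reached similar sizes, at 18.8 for Col1a2 and 17.1 for Nid2, and in the NDR log2 ratio the covered Pdgfrb, at -2.02, lay beyond Col6a1. Col6a1 had patterning levels of 3.48 and -2.54 in non-stimulated and LPS-stimulated DCs, and 15.9 and 13.1 in non-stimulated and TNF-stimulated fibroblasts. Its NDR log2 ratio was -0.10 and 0.13 in DCs and -2.14 and -1.26 in fibroblasts. The groups did not overlap in either measure, and the fitted differences were 14.03 ± 4.11 (SE, adjusted p = 0.341) and -1.71 ± 0.59 (SE, adjusted p = 0.700). In the 8 single fibroblast libraries patterning ran from 3.14 to 16.5, with 1 library below the higher DC set, and the NDR log2 ratio from -3.43 to -0.33, below both DC sets. In DCs its bins were also the less filled, as given above.

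Col4a1 and Col4a2 encode the chains of basement membrane collagen IV. Col4a1 read -7.10 and -1.51 in DCs and 11.6 and 9.003 in fibroblasts, a difference of 14.6 ± 4.24 (SE, adjusted p = 0.332). Col4a2 went the other way on the same nucleosomes, with 16.0 and 15.2 in DCs and -3.30 and -5.54 in fibroblasts, a difference of -20.04 ± 4.10 (SE, adjusted p = 0.191). The NDR log2 ratio of Col4a1 was 0.37 and 0.07 in DCs and -0.91 and -0.87 in fibroblasts, and that of Col4a2 was -0.70 and -3.18 against 0.64 and 0.67. In DCs the shared stretch was thus depleted on the Col4a2-upstream side and in fibroblasts on the Col4a1-upstream side. In the 8 single fibroblast libraries neither promoter kept to one side of 0, with patterning means of 0.588 ± 5.80 for Col4a1 and 1.41 ± 8.11 for Col4a2 (SD, n = 8). With both left out, patterning was above both DC sets at 9 of 17 members and below them at 3, and the NDR was deeper at 8 of 17 and shallower at 1.

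Of the 10 glycoprotein and elastic fibre genes, covered or not, patterning was higher in both fibroblast sets at 8, namely Eln, Fbln1, Fbln2, Fbln5, Fn1, Lamc1, Nid1 and Nid2, and lower at none. Over all promoters, 20.4% of the covered and 18.8% of the thinly covered were higher, and 18.3% and 16.6% were lower. Fbln5, a fibulin needed for elastic fibre assembly, read -9.77 and -5.22 in DCs and -4.04 and 6.31 in fibroblasts, with a difference of 8.63 (adjusted p = 0.575). Nid1, which links laminin to collagen IV, read -1.97 and -3.42 against 1.65 and 1.28, and its NDR log2 ratio 0.33 and 0.19 against -0.46 and -0.59. Fn1 had NDR log2 ratios of -0.23 and 0.15 in DCs and -0.22 and -3.26 in fibroblasts. That low value came from the TNF-stimulated set alone, where its window was empty. The Fn1 start site also lies 165 bp from that of Apol7d on the opposite strand.

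The matricellular gene Thbs1, encoding thrombospondin and expressed in both cell types, was patterned in both. It read 7.46 and 8.76 in DCs and 14.1 and 17.9 in fibroblasts, with NDR log2 ratios of -2.25 and -2.15 against -3.58 and -3.07. The Thbs1 window was empty in both fibroblast sets, so the last 2 ratios rest on the pseudocount. Postn lay close to 0 throughout, at -1.96 and -1.18 in DCs and 1.93 and 0.740 in fibroblasts, and its sets separated by little in both measures. Its whole upstream stretch is shown because Postn was also among the members that moved most in the later comparisons, with the TATAAA match in capitals.
Postn, chr3:54164880-54165029, plus strand: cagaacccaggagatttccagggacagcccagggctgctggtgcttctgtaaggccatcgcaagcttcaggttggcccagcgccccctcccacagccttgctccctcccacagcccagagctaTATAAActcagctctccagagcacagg

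S100a4, also called fibroblast-specific protein and encoding a calcium-binding protein, was more patterned in the DC sets than in the fibroblast H3K4me1 sets. It read 10.4 and 4.62 in DCs and -2.24 and -2.02 in fibroblasts, a difference of -9.67 ± 4.17 (SE, adjusted p = 0.526), with NDR log2 ratios of -1.24 and -0.75 against -0.30 and 0.17. The sets did not overlap, and this promoter had the highest coverage of the list. Its expression stood at the 99.8 percentile in DCs and the 99.9 percentile in fibroblasts. In the 8 single fibroblast libraries its NDR log2 ratio stayed between -0.45 and 0.46. With the pol-II antibodies, however, S100a4 patterning in TNF-stimulated fibroblasts was 8.14 and 8.09 (S7P) and 7.79 (S5P). Its upstream stretch to -2 bp is printed because it is the best covered TATAAA promoter of the list.
S100a4, chr3:90407543-90407691, plus strand: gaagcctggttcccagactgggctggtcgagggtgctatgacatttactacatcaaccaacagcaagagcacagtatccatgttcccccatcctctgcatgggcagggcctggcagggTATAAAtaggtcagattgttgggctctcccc

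The receptors for platelet-derived growth factor differed from each other at the start sites counted. Pdgfrb read -1.44 and -0.710 in DCs and 8.22 and 3.44 in fibroblasts, with NDR log2 ratios of -0.32 and -0.53 against -3.57 and -1.32. The Pdgfrb window was empty in the non-stimulated fibroblast set, so the -3.57 rests on the pseudocount. Pdgfra read 0.706 and -0.261 in DCs and -5.58 and -10.9 in fibroblasts, and was below 0 in all 8 single fibroblast libraries, where it ranged from -23.5 to -0.379. Its other start site, upstream of this one and with the higher fibroblast expression value, read -2.19 and 7.29 in DCs and 5.16 and -2.54 in fibroblasts. There the NDR log2 ratio was below 0 in all 8 single fibroblast libraries (mean -1.23), as it was at Pdgfrb (mean -1.51). Thy1, a surface glycoprotein of fibroblasts, overlapped between the cell types, at -2.82 and 8.38 against 0.423 and 2.76.

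Among the small proteoglycans Dcn read 4.70 and 6.91 in DCs and 1.504 and 3.16 in fibroblasts, a difference against the general direction at a promoter whose bins were the less filled in DCs. Its NDR log2 ratio was 0.28 and -3.57 in DCs and 0.07 and -0.51 in fibroblasts, so the DC sets differed more from each other than from the fibroblasts. The Dcn window was empty in the LPS-stimulated DC set, so the -3.57 rests on the pseudocount. Bgn and Lum were thinly covered. Bgn, encoding biglycan, read 2.48 and 3.14 in DCs and 6.91 and 11.2 in fibroblasts, and Lum, encoding lumican, -4.54 and -12.5 against -3.03 and -5.39.

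Among the 5 collagen crosslinking and folding genes, Lox, the principal lysyl oxidase, had a deep NDR in both cell types. Its NDR log2 ratios were -1.85 and -2.54 in DCs and -3.16 and -3.34 in fibroblasts, although its expression stood at the 51.3 percentile in DCs. Its relatives were shallower in DCs, with NDR log2 ratios of 0.28 and -0.87 for Loxl3, -1.11 and 0.80 for Loxl1, and 0.15 and 0.21 for Loxl2. In fibroblasts Loxl3 read -0.74 and -0.65, Loxl1 -2.07 and -3.25, and Loxl2 0.20 and 0.51. Serpinh1, the collagen chaperone, read -1.17 and -0.09 in DCs and -3.36 and -0.81 in fibroblasts, which overlapped. Col1a1, the main chain of type I collagen, overlapped between the cell types in patterning and lay close in the NDR, with NDR log2 ratios of -0.72 and -0.56 against -0.55 and -0.60 and patterning of -6.12 and -0.330 against 3.51 and -0.754.

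**Figure D3:**
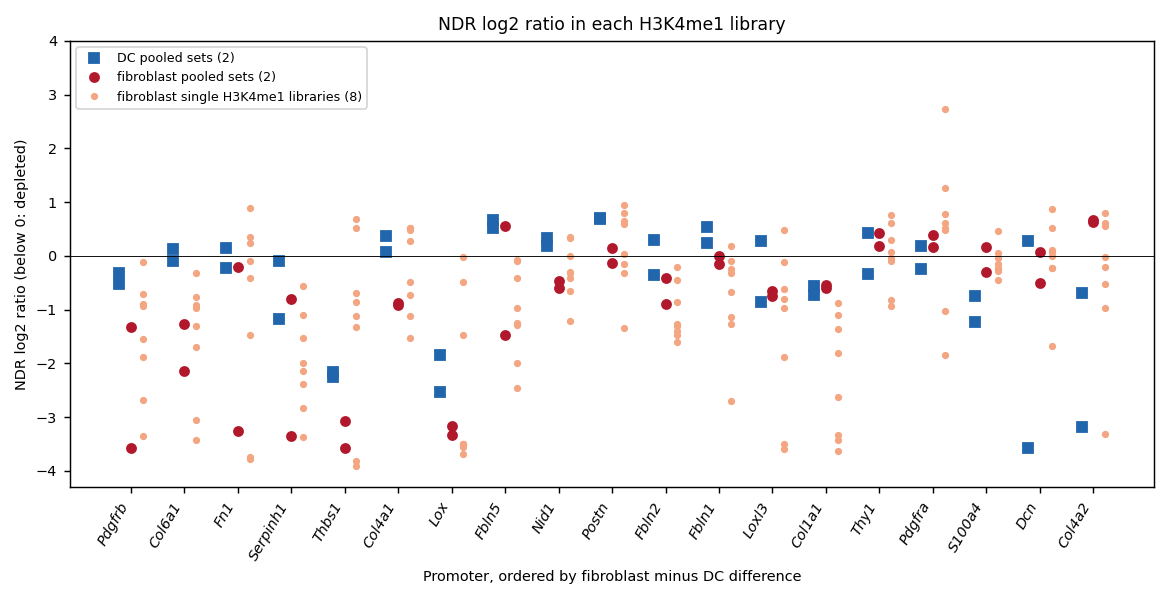
NDR log2 ratio of the 19 covered members in the 2 DC sets, the 2 fibroblast sets and the 8 single fibroblast H3K4me1 libraries, ordered by fibroblast minus DC difference. Fibroblast sets lie below DC sets at Pdgfrb and Col6a1 and above them at S100a4 and Col4a2, while single libraries spread over several log2 units at Lox, Thbs1 and Fn1.

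By limma across all covered promoters, 0 of the 19 members passed an adjusted p of 0.05 for the cell type difference in patterning, where 0.0738% of the promoters (10 of 13559) did. At an unadjusted p under 0.05 there were 4 members, Col4a2, Col4a1, Col6a1 and S100a4, against 8.98% of all promoters. For the NDR log2 ratio 0 members and 0 promoters passed, and Col4a2 (2.59 ± 0.85, SE) and Col6a1 were under 0.05 unadjusted, against 6.97%. The sign of the difference was positive in patterning for 13 of 19 members, where 51.8% of promoters were positive, and negative in the NDR for 13, where 54.2% were. Only 2 sets per cell type stood behind each value, 1 non-stimulated and 1 stimulated. These p-values therefore measure how far the 2 states disagree on the difference, with 1 residual degree of freedom before moderation.

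In the fit without a coverage minimum 0 of all 43 members passed the adjusted test, and 7 in patterning (5.44% of 25881 promoters) and 5 in the NDR (6%) were under 0.05 unadjusted. Of the 24 thinly covered members, patterning was higher in both fibroblast sets at 11, or 45.8%, against 18.8% of the thinly covered promoters, and lower at Thbs2 only, against 16.6%. The NDR was deeper at 11, against 18.6%, and shallower at Col8a1, Ctgf, Lamb1 and Thbs2, against 16.7%. Col1a2, the partner chain of Col1a1, read -13.5 and -11.04 in DCs and 4.17 and 8.94 in fibroblasts, where the DC bins were mostly empty. Nid2 read -8.41 and 3.98 against 16.1 and 13.7, and Tnc, encoding tenascin C, 0.752 and 1.91 against 8.71 and 13.3. Col3a1 (7.38 and -9.59 against 4.48 and 1.22), Fbn1 (-2.47 and 16.1 against 9.27 and 0.244), Sparc (6.29 and -13.1 against -4.06 and -7.15), Cyr61 (6.82 and -2.97 against 10.8 and -7.52) and Vim (17.8 and -2.15 against 3.04 and 13.2) overlapped. Ctgf read 7.70 and 4.57 against 9.48 and 8.40, and its NDR window was empty in both DC sets.

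The mean profile averages the same values over the 19 covered members and went the same way in the pooled sets. Mean occupancy in the NDR was 0.905 and 0.812 of that in the far upstream flank in the DC sets and 0.672 and 0.691 in the fibroblast sets. In the single fibroblast H3K4me1 libraries it ran from 0.494 (second TNF-stimulated knockdown library) to 0.949 (first TNF-stimulated control library). Only that highest value lay above the DC sets. Promoters active in fibroblasts only gave 0.799 and 0.758 against 0.706 and 0.703, and promoters active in both gave 0.503 and 0.478 against 0.467 and 0.412. The first peak downstream of the start site had a median position of 65 and 85 bp in the DC sets and 115 and 75 bp in the fibroblast sets, with interquartile ranges that overlapped.

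**Figure D4:**
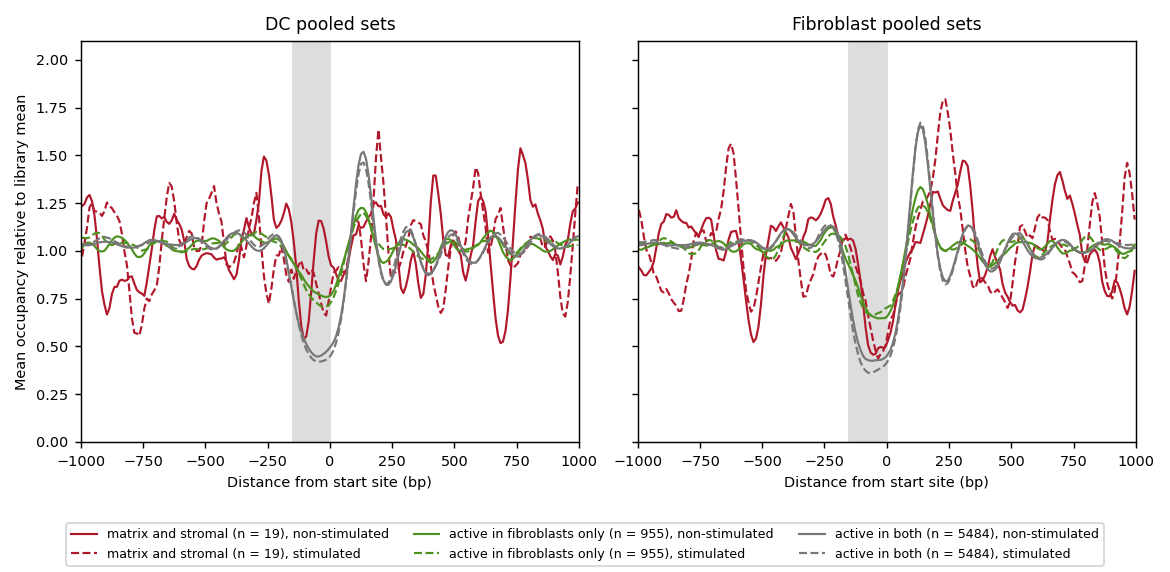
Mean occupancy relative to the library mean against distance from the start site, in DC sets (left) and fibroblast sets (right), for the 19 covered members, promoters active in fibroblasts only (955) and promoters active in both cell types (5484); dashed lines are stimulated cells and the grey band is the NDR window. The member profile dips to 0.456 and 0.438 in the fibroblast sets and to 0.539 and 0.662 in the DC sets. Each is a mean over the same 19 promoters.

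In the 8 single fibroblast libraries, which the pooled comparison did not use, the NDR log2 ratio averaged below 0 at 89.5% of the 19 members and 83.8% of all covered promoters. It was below 0 in all 8 libraries at Col1a1, Col6a1, Fbln2, Fbln5, Lox, Pdgfrb and Serpinh1, or 36.8% of the 19, where 17.1% of all covered promoters and 25.3% of those active in fibroblasts were. Col1a1 ranged from -3.63 to -0.88 (mean -2.27 ± 1.12, SD, n = 8), deeper than in either fibroblast pooled set. Patterning was above 0 in all 8 at Col1a1, Col6a1, Fbln2, Lox, Loxl3 and Serpinh1, or 31.6% against 15.5%. Among thinly covered members Sparc, encoding a collagen-binding glycoprotein, had an NDR log2 ratio above 0 in every one of the 8, from 0.0052 to 1.53, although it was expressed at the 99.8 percentile in fibroblasts. The 2 replicates of a group differed by a median of 4.28 to 6.01 in patterning over the 19 members.

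TNF-α changed no member past the adjusted threshold in these 8 libraries. By limma 0 of 19 members and 0 of 13559 promoters passed in either measure, and at an unadjusted p under 0.05 there were 2 members in patterning (5.71% of promoters) and 1 in the NDR (5.69%). The patterning difference was positive at 7 of 19 members (52.8% of promoters) and the NDR difference negative at 8 (54.5%). The 7 became 11 with the square root of occupancy, 11 without the first TNF-stimulated knockdown library and 10 without the first non-stimulated one, so the members' patterning had no stable direction. Postn had patterning levels of 1.63, 0.468, 9.73 and 15.1 in the 4 non-stimulated libraries and -7.46, -3.24, 1.45 and -2.52 in the 4 with TNF-α, a difference of -9.67 ± 2.57 (SE, adjusted p = 0.866). The groups of 4 overlapped for Postn, since the lowest non-stimulated value lay below the highest stimulated one. Col4a1 read -6.02, -2.97, -3.36 and -3.72 without and 5.41, 11.4, 1.40 and 2.52 with TNF-α, which did not overlap, and its NDR log2 ratio differed by -1.42 ± 0.34 (SE, adjusted p = 0.669). In the pooled sets Col4a1 did not move that way, at 11.6 without and 9.003 with TNF-α.

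Knockdown of the BAF ATPases likewise left 0 of 19 members and 0 promoters past the adjusted threshold. At an unadjusted p under 0.05 there were 2 members in patterning (5.85% of promoters) and 2 in the NDR (5.16%). The patterning difference was positive at 11 of 19 members (50.6% of promoters) and the NDR difference negative at 12 (48.6%). Thbs1 had NDR log2 ratios of -3.82, -3.91, -1.32 and -1.12 in the control libraries, the first 2 non-stimulated, and 0.69, -0.86, 0.52 and -0.70 in the knockdown libraries. All 4 knockdown values lay above all 4 control values, with a difference of 2.46 ± 0.69 (SE, adjusted p = 0.923). The Thbs1 window was empty in the 2 non-stimulated controls, so their values rest on the pseudocount. With 0.5 in place of 0.1 the Thbs1 difference was 1.35. Lox read -3.50, -3.69, -3.50 and -3.56 in the controls and -1.47, -0.02, -3.50 and -0.49 in the knockdown cells, a difference of 2.19 ± 0.75 (SE, adjusted p = 0.923), and the groups overlapped through 1 knockdown library. The Lox window was empty in that library and in all 4 controls, so these values rest on the pseudocount, and with 0.5 in place of 0.1 the difference was 0.93. Fbln5 had lower patterning in the knockdown cells, at 0.903, -5.64, -4.67 and -1.54 against 1.09, 7.56, 6.52 and 11.02, a difference of -9.29 ± 2.81 (SE, adjusted p = 0.818). Postn was the member with the opposite sign at that level, at 8.09 ± 2.57 (SE, adjusted p = 0.818). The first replicate of both knockdown groups is labelled 04U and the other single H3K4me1 libraries 12U. If these tags are MNase units, the former were digested with less, but the paper names neither amount among its on-bead doses. The 04U libraries had the most filled bins of the single H3K4me1 libraries, so this label and knockdown are partly confounded. The interaction of TNF-α and knockdown was past the adjusted threshold at 0 members and 0 promoters, with Thbs1 and Loxl3 under 0.05 unadjusted in the NDR (6.03% of promoters) and no member in patterning (5.65%).

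The pol-II libraries select promoters by polymerase rather than by H3K4me1. They were sequenced as paired ends and the H3K4me1 libraries as single ends. The H3K4me1 libraries compared here came from the control cells of the knockdown, a label that the pol-II libraries do not carry. Antibody, sequencing type and cell population therefore cannot be told apart. Against the 2 control H3K4me1 libraries with TNF-α, 0 members and 0 promoters passed for either antibody. For S7P, 3 members were under 0.05 unadjusted in the NDR (10.2% of promoters) and 0 in patterning (6.2%). The patterning difference was positive at 11 of 19 (48.1% of promoters) and the NDR difference negative at 10 (43.2%). The 11 became 6 with the square root of occupancy and 6 without the first control library. All 3 members under 0.05 in the NDR had shallower NDRs with S7P. Lox read -1.16 and -0.70 against -3.50 and -3.56 (difference 2.601 ± 0.48, SE, adjusted p = 0.259), Serpinh1 0.18 and 0.33 against -1.99 and -2.15 (2.32 ± 0.46, adjusted p = 0.266) and Fbln5 -0.15 and -0.26 against -1.99 and -2.45 (2.01 ± 0.48, adjusted p = 0.319). The Lox window was empty in both control libraries, and its difference was 1.003 with a pseudocount of 0.5. With the window from -200 to 50 bp the difference fell to 0.04 for Fbln5 and 0.93 for Serpinh1.

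With S5P there was 1 library, assumed to vary like the other groups, so its p-values rest on the spread of the H3K4me1 and S7P pairs alone. The study lists 2 biological replicates for S5P. This library carries no replicate number, so whether it holds 1 of them or both is not known. The NDR difference was negative at 15 of 19, where 52.3% of promoters were negative, with a median of -1.09 against -0.066 for all promoters. Unadjusted p was under 0.05 at 4 members (8.32% of promoters). Col1a1 read -3.43 against -1.10 and -0.88, and Fn1 -1.85 against 0.24 and 0.35. The Col1a1 difference of -2.44 was -0.99 with a pseudocount of 0.5, and the Fn1 difference of -2.15 was -0.80 with the square root of occupancy. Lox and Fbln5 went the other way, Lox at -1.58 against -3.50 and -3.56 and Fbln5 at 0.88 against -1.99 and -2.45. The Fbln5 difference of 3.10 was 0.85 with the wider window. The Lox window was empty in both control libraries, and the Lox difference of 1.95 was 0.64 with a pseudocount of 0.5. In patterning 2 members were under 0.05 unadjusted (7.1% of promoters), both with an adjusted p of 0.663. They were Postn at 13.5 against -7.46 and -3.24 and Fbln5 at -6.12 against 6.52 and 11.02. The median over all promoters was itself higher by 2.69, and the difference was positive at 14 of 19 members and 63.7% of promoters. S100a4, near 0 in the H3K4me1 fibroblast libraries, read 8.14 and 8.09 with S7P and 7.79 with S5P, against -3.09 and 2.27 in the controls.

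**Figure D5:**
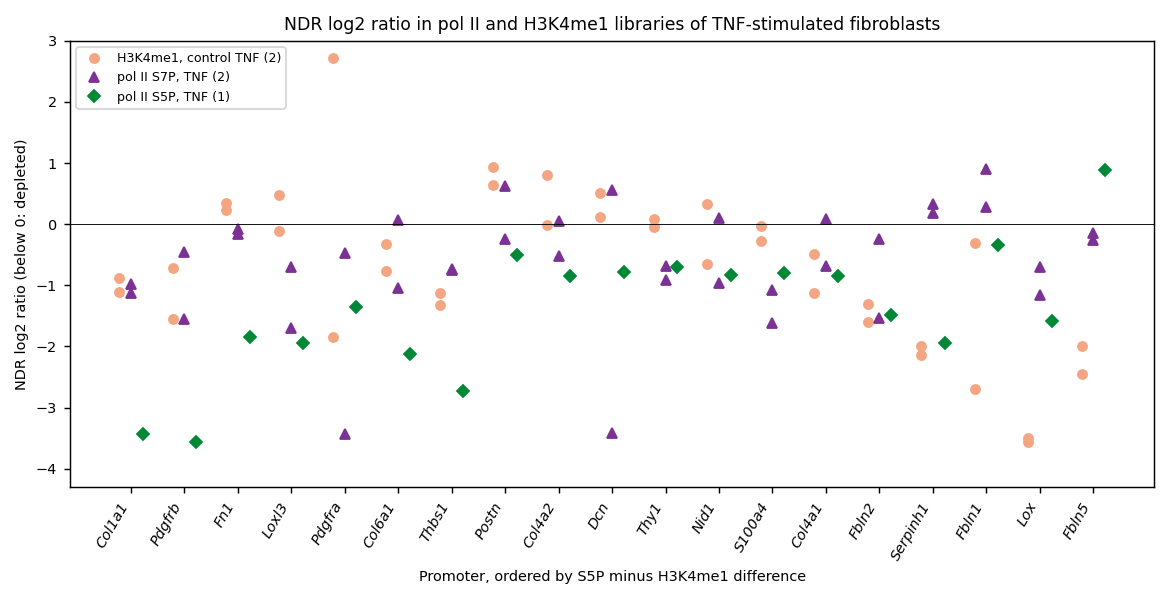
NDR log2 ratio of the 19 covered members in TNF-stimulated fibroblasts, with H3K4me1 (2 control libraries), S7P (2) and S5P (1), ordered by S5P minus H3K4me1 difference. The S5P value lies below both H3K4me1 values for most members, and clearly above them at Lox and Fbln5.

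A wider list of 52 genes for matrix assembly, TGF-β signalling and matrix receptors, none of them a member and 1 of them (Pcolce) also a fibroblast marker, was read in the same fits. Of these, 34 were covered, and 0 passed in any comparison. For the cell type difference 23 of 34 were positive in patterning (median 1.27), against 51.8% of all promoters. The NDR difference was negative at 23 (median -0.41), against 54.2%. For TNF-α 20 were positive in patterning (52.8% of promoters) and 18 negative in the NDR (54.5%). For the knockdown 18 were positive (50.6%) and 13 negative (48.6%). With S7P 22 were positive in patterning (48.1% of promoters) and 19 negative in the NDR (43.2%). With S5P 20 were positive (63.7%) and 18 negative (52.3%). The covered DC and myeloid markers moved the other way between cell types, with 13 of 18 lower in fibroblasts in patterning (median -6.91, 1 past the adjusted threshold at 0.0301) and 14 of 18 positive in the NDR (median 0.79). Over all covered promoters 0.0738% passed in patterning, and in most alternatives 0 did, as given below. The covered fibroblast markers were positive in patterning at 6 of 7 (median 1.92) and negative in the NDR at 5 of 7 (median -0.69). Both covered epithelial markers were positive in patterning and negative in the NDR, and the 2 endothelial markers were split in each.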

How the data were processed

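Deposited matrices hold ChIP-MNase signal in 200 bins of 10 bp around each refGene start site. The authors aligned reads with bowtie to mm9 (the submitters' processing notes name Bowtie2 and bedtools), kept paired fragments of 140 to 180 bp or extended single reads, and divided bin counts by the total of the surrounding 1 kb, so depth is unknown and a bin without fragments is empty. The authors also deposited a promoter table with the coverage score, a signal, and 1 expression value per cell type from public datasets, on scales not given in the sources used here. Its 2 columns of log2 changes on stimulation were not used. The matrices carry no promoter names, and their order was taken to be that of the table: all 1113 neighbouring same-strand start sites within 500 bp had profiles that correlated above 0.9 after the shift between them.

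RefSeq names were mapped to symbols for 99.2% of promoters. Members and lists were chosen with earlier results of these data known. Occupancy was divided by the library mean, and patterning and NDR were fitted for 13559 promoters with limma 3.58.1 (R 4.3.3), with Benjamini-Hochberg adjustment, after tests on simulated data. Terms were cell type and stimulation (4 pooled sets), TNF-α and knockdown (8 libraries) or antibody (5 libraries). Inducible promoters were not removed from the active class. Values are named for past-threshold members, the 3 highest and 3 lowest cell type differences, a fixed set of 21 well-known members, and others chosen after their values were seen. Alternatives changed the scaling, filter, pseudocount, window, template, terms and libraries. Motifs and sequences come from the mm9 genome, with GENCODE annotation.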

Additional observations from a re-analysis of the deposited data

How the results depend on the processing

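In every alternative run 0 members passed the adjusted threshold, and of 28 named differences 27 kept their sign throughout, the exception being Dcn (cell type, NDR) at -0.50 without the LPS-stimulated DC set. Size was less stable: 21 of the 28 shrank by over 1.5 times in some alternative. Among them were Fbln5 at 0.04 (S7P, NDR, wider window) and, without 1 set, Fn1 at -0.18 (TNF-stimulated fibroblasts left out) and Pdgfrb at -0.89 (non-stimulated fibroblasts left out), both for the cell type NDR. The shares of members with patterning above, and with NDR below, both DC sets stayed within 1.5 times, including, as choices added after the data were seen, without Col4a1 and Col4a2 and for the 24 thinly covered members alone. The opposite counts did not. Patterning below, 4 of 19, was 5 of 43 with all promoters and 1 of the 24, and within 1.5 times as a share in the other alternatives. NDR above, 2 of 19, was 1 of 17 without Col4a1 and Col4a2, 4 of the 24, and 3 to 6 without 1 set (6 without non-stimulated DCs, 4 without non-stimulated fibroblasts). The 10 promoters called for cell type patterning became 0 with occupancy as deposited, its square root, all promoters, the fibroblast template, no state term, and without any 1 of the sets (range 0 to 0), and 6 with all 12 H3K4me1 libraries. For TNF-α the 0 promoters called in the NDR became 11 with the square root, 8 with all promoters, 3 with the wider window, and 0 to 2 when 1 library was left out (2 without control TNF replicate 1).

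Counts of positive patterning differences moved by over 1.5 times for TNF-α and S7P, as given with them, and the TNF-α patterning median, -1.10, ranged from -2.13 to 0.79 when 1 library was left out. The members' median cell type difference in patterning, 2.90, became 4.72 as deposited, 4.59 with the square root, 3.95 with all promoters, 0.700 at scores above 200 (7 members) and 3.67 with the fibroblast template, and ranged from 2.43 to 3.87 when 1 set was left out. Its NDR counterpart, -0.69, became -0.44 with the square root, -0.56 with all promoters, -0.36 with a pseudocount of 0.5 and -0.39 with the wider window, and ranged from -0.85 to -0.44. The NDR median for TNF-α, 0.22, became -0.031 without the 2 libraries labelled 04U and ranged from -0.23 (without control non-stimulated replicate 1) to 0.20, so it had no stable sign. That for knockdown, -0.15, became -0.44 without those 2 libraries. The S7P median, -0.07, became 0.28 with the square root and -0.27 at scores above 200, and ranged from -0.35 (without S7P replicate 1) to 0.25 (without S7P replicate 2). The S5P median, -1.09, became -0.46 with the square root, -0.64 with all promoters, -0.68 at scores above 200, -0.53 with a pseudocount of 0.5 and -0.43 with the wider window, and ranged from -1.29 to -0.77. The cause of these shifts was not tested.

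Replicate numbers did not pair the libraries: deviations of same-numbered libraries from their group means correlated at -0.008 to 0.028. A replicate block left 0 members and 0 promoters called for TNF-α, knockdown and S7P in both measures. It was not run for S5P, which has no replicate number, and the pooled sets have none to pair. Empty bins limit the NDR ratio: of the 15 libraries the window held no fragment in 6 at Lox, 5 at Lamc1, 4 at Thbs1 and 4 at Vim.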
